A study of Mus musculus with 36 samples.

Results

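The genes described here are 35 genes known as targets or parts of the p53 pathway, measured in the kidney cortex of mice with and without diabetes under vehicle or either of a pair of lipoxins. All 35 were found by symbol among the 15,730 genes of the count table, and all 35 passed the filter on low counts that left 15,726 genes for testing. The list was drawn up because Cdkn1a, Trp53cor1 and Eda2r led the contrast of diabetic with nondiabetic vehicle mice, so that contrast is given below as a description with no test. The contrasts of diabetic with nondiabetic mice under LXA4 and under benzo-LXA4 share no library with it or with each other, and they carry the tests. The spread used in these tests was estimated from all 36 libraries, the vehicle ones included, so the tests are not wholly independent of that contrast.

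The protein p53, encoded by Trp53 in the mouse, is a transcription factor that is held at a low level by the ubiquitin ligase Mdm2 and is stabilised after DNA damage and other stress. Stabilised p53 binds paired copies of a short palindromic element and switches on genes that halt the cell cycle, repair DNA, limit oxidants or start apoptosis, together with Mdm2 itself, which closes a feedback loop. In the kidney, p53 and its target p21 are known chiefly from tubule cells after ischaemic or toxic injury, where they act in arrest and cell death.

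All mice were male and lacked functional apolipoprotein E (ApoE−/−, C57BL/6 background). Diabetic mice had received streptozotocin, a DNA-alkylating toxin of pancreatic beta cells, as 5 daily intraperitoneal doses of 55 mg/kg at 6 weeks of age, and the labels describe no control injection for nondiabetic mice. Both states were given lipoxin A4 (LXA4), an arachidonic acid metabolite known for resolving inflammation, at 5 µg/kg, or its synthetic analog benzo-LXA4, which carries a benzene ring in the LXA4 backbone, at 1.7 µg/kg, or 0.1% ethanol as vehicle, by intraperitoneal injection 2 times a week. The labels describe dosing between weeks 10 and 16 for an intervention design without stating that these libraries come from it. The groups were diabetic and nondiabetic mice under LXA4, under benzo-LXA4 and under vehicle, with 6 libraries each. Whether replicates were separate mice is not stated, so p-values measure the spread between these samples. Exposure to streptozotocin and the diabetes that followed cannot be told apart in this design.

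Total counts ran from 8,896,193 to 43,305,005 per library. A pair of libraries stood apart by their content of ribosomal and small structural RNA, which took 42.8% of the counts of diabetic LXA4 replicate 6 and 11.5% of those of nondiabetic vehicle replicate 3, against at most 3.45% in the other 34. Nondiabetic benzo-LXA4 replicate 1 also stood apart, with 338 CPM (counts scaled to the TMM-adjusted library total) of 5 adipose markers, against at most 23.5 CPM in any other library. Markers of the cortex were present in every group: the 14 proximal tubule markers summed to a median of 22,382 CPM in diabetic and 35,279 in nondiabetic mice under LXA4, 24,447 in diabetic and 29,232 in nondiabetic mice under benzo-LXA4, and 23,347 in diabetic and 31,671 in nondiabetic mice under vehicle. The 9 measured markers of injured tubule summed to medians of 627 and 439 CPM, 594 and 406 CPM, and 645 and 413 CPM in the same order of groups. Results are given with and without the libraries that stood apart where these change them, and the part that the shift in tubule markers has in the results was not tested. In bulk tissue, fewer cells of a type and less RNA per cell cannot be told apart.

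The promoters of the members that rose in both tests below are shown first, because the list is defined by a factor that binds a known element. RefSeq (GRCm38.p6) gave windows from 250 bases before to 50 bases after a transcription start for 25 of the 35 members. They were searched for exact matches to the p53 half-site consensus, a palindrome of 10 bases, so that one search covers both strands. A match was present in 12 of 33 member windows (36.4%), against 8.36% of all 32,851 windows in the table. Of the 13 members that rose in both treated contrasts, 8 had a window and 4 of these held a half-site, against 7 of 17 among the other members with a window. The 4 are Cdkn1a at chr17:29090729-29091028 on the plus strand, Mdm2 at chr10:117710709-117711008 on the minus strand, Ccng1 at chr11:40755237-40755536 on the minus strand and Aen at chr7:78895808-78896107 on the plus strand, with the matches in capitals.
Cdkn1a: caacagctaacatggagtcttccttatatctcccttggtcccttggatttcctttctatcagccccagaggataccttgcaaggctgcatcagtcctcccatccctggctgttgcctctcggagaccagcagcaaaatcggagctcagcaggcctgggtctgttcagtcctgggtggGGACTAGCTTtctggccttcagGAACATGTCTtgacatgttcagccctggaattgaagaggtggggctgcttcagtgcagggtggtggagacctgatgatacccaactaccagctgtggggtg
Mdm2: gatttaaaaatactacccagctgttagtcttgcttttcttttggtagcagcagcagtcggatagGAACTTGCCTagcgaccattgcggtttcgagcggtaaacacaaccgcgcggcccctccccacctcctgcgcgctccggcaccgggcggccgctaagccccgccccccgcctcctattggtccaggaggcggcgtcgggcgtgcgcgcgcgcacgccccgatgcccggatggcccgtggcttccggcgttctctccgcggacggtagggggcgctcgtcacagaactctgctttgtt
Ccng1: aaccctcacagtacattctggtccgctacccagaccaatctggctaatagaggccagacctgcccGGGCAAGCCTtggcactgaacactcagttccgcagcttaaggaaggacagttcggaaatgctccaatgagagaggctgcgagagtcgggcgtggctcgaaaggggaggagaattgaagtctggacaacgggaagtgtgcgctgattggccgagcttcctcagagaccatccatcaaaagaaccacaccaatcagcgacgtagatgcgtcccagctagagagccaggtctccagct
Aen: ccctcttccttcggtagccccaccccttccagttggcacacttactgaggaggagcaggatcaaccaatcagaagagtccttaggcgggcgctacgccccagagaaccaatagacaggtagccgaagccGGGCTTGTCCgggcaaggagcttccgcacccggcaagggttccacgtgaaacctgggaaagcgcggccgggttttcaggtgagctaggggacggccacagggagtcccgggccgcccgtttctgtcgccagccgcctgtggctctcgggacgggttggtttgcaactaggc
The Cdkn1a window held 2 half-sites that began 73 and 51 bases before the start. Together, with at most 13 bases between them, they met the definition of a full site, which 24 windows (0.0731%) of the whole table did, and Cdkn1a was the only member among them. In Mdm2 and Ccng1 the single half-site began 186 and 185 bases before the start, and in Aen 121 bases before it. Another Aen window (chr7:78895677-78895976) holds the same site, 10 bases after its own start. The member windows counted above therefore include that site more than 1 time. A match is a description of these letters and not evidence of binding, and the 10 members with no window are Trp53cor1, Trp53inp1, Pmaip1, Zmat3, Tnfrsf10b, Perp, Xpc, Ddb2, Pvt1 and Rrm2b. Among the members that rose in both treated contrasts, Eda2r, Plk2, Psrc1 and Ephx1 had a window and no match.

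The first question was which p53 targets differ between diabetic and nondiabetic mice in the treated libraries, which are not those of the vehicle contrast. The members were chosen with earlier results of these data known, so the choice may not be independent of the treated libraries either. Under LXA4, 18 of the 35 members rose and 3 fell in diabetic mice, and under benzo-LXA4 13 rose and 0 fell. The rises under LXA4 ranged from 1.18-fold in Ppm1d to 10.7-fold in Trp53cor1. The same 13 members rose in both. They were Cdkn1a, Ccng1, Plk2 and Psrc1, listed under arrest, and Eda2r, Trp53inp1, Tnfrsf10b and Aen, listed under apoptosis. The others were the long noncoding RNAs Trp53cor1 and Pvt1, the feedback gene Mdm2, Ephx1 of xenobiotic metabolism and the RNA-binding protein gene Zmat3. Trp53 itself did not pass in either.

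A change is counted as a rise or fall when the quasi-likelihood F test of edgeR gave a Benjamini-Hochberg adjusted p under 0.05 over all 15,726 genes. By the same rule 15.4% of all genes were higher and 12.3% lower in diabetic mice under LXA4, and 2.81% were higher and 1.25% lower under benzo-LXA4, which makes 27.7% and 4.06% in either direction. The members' shares were 51.4% higher and 8.57% lower under LXA4, and 37.1% higher under benzo-LXA4. Higher in both were 13 members, which is 72.2% of those that rose under LXA4 and 100% of those under benzo-LXA4, against 2.04% (321) of all genes. The median log2 difference, diabetic minus nondiabetic, was 0.54 over the members and 0.05 over all genes under LXA4, and 0.31 and −0.01 under benzo-LXA4. Without the 2 libraries rich in structural RNA, 20 members were higher and 3 lower under LXA4 and 17 were higher under benzo-LXA4, where 17.5% and 6.12% of all genes were then higher and 19.3% lower under LXA4. Higher in both were then 16 members and 4.16% (654) of all genes. Without nondiabetic benzo-LXA4 replicate 1, 14 members and 2.14% of all genes were higher under benzo-LXA4, with Phlda3 added.

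The vehicle libraries gave rise to the list, so their values serve for description and nothing is read from them. There, 15 members lay past the same threshold as higher and 0 as lower in diabetic mice, beside 3.44% and 2.16% of all genes, or 5.6% in either direction. The median log2 difference of the members was 0.37 there and that of all genes −0.01.

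**Figure D1:**
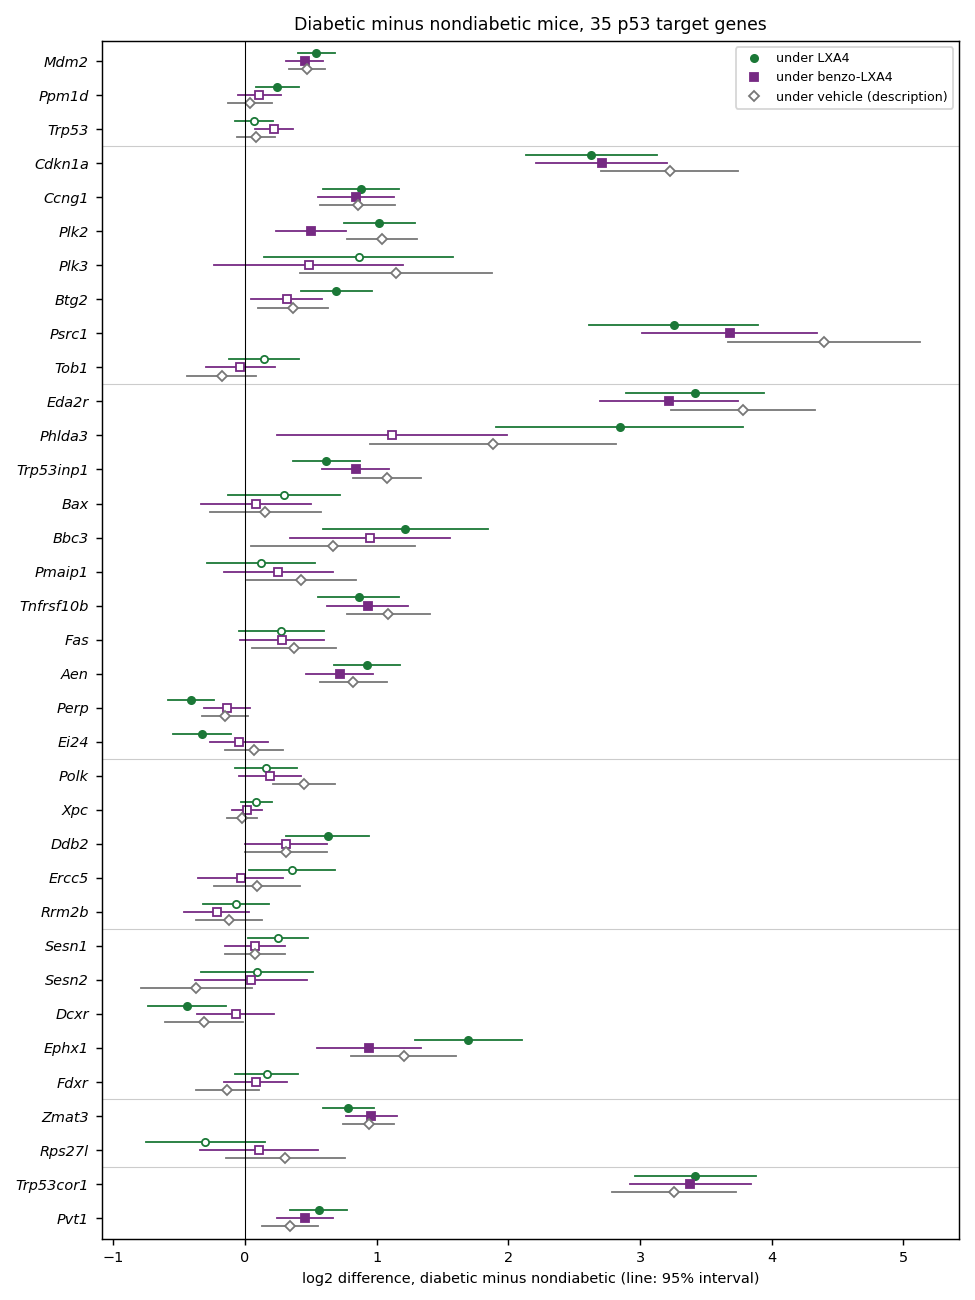
Log2 difference of diabetic minus nondiabetic mice for the 35 members under LXA4 (circles), benzo-LXA4 (squares) and vehicle (diamonds), grouped by role from p53 and its feedback at the top to long noncoding RNAs at the bottom. Lines are 95% intervals of the fitted difference; filled symbols passed the test, and open diamonds are descriptions with no test. Cdkn1a, Psrc1, Eda2r and Trp53cor1 lie above 2.5 in all 3 contrasts, while Trp53 lies between 0.07 and 0.22.

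Among the genes of p53 and its feedback, Trp53 (chromosome 11, 69,580,359 to 69,591,873 on GRCm38) passed in neither contrast with all libraries. Under LXA4 its lowest, median and highest values were 16.8, 20.3 and 21.5 CPM in diabetic mice and 16.9, 19.6 and 20.9 CPM in nondiabetic mice, a log2 difference of 0.07 (95% interval −0.08 to 0.21, adjusted p = 0.497 in edgeR). Under benzo-LXA4 they were 21.5, 22.01 and 24.6 CPM in diabetic and 17.2, 19.2 and 21.9 CPM in nondiabetic mice, a difference of 0.22 (0.07 to 0.36, adjusted p = 0.0789). The groups overlapped in both contrasts. The benzo-LXA4 difference passed, at an adjusted p of 0.0320 in edgeR, without the 2 libraries rich in structural RNA, and at 0.0386 without nondiabetic benzo-LXA4 replicate 3.

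Mdm2 (chromosome 10, 117,688,875 to 117,710,758), the ligase that targets p53 for degradation, rose in both. Under LXA4 it ran from 67.9 over a median of 79.2 to 97.8 CPM in diabetic mice and from 54.5 over 55.6 to 56.6 CPM in nondiabetic mice (log2 0.54, adjusted p = 1.75e-06 in edgeR). Under benzo-LXA4 the values were 68.9, 74.9 and 79.2 CPM in diabetic and 51.5, 55.3 and 57.2 CPM in nondiabetic mice (log2 0.45, adjusted p = 6.49e-05 in edgeR). Every diabetic library lay above every nondiabetic library in each contrast. Ppm1d, a phosphatase that turns off the damage signal to p53, rose by 0.24 on the log2 scale under LXA4 (adjusted p = 0.0238 in edgeR) and differed by 0.11 under benzo-LXA4 (adjusted p = 0.548). Its LXA4 call was lost without any one of diabetic LXA4 replicates 5 and 6 and nondiabetic LXA4 replicates 3 and 4.

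Of the 7 members listed under cell cycle arrest, 5 rose under LXA4 and 4 under benzo-LXA4. Psrc1, a gene of the mitotic spindle, is counted among these rises in both contrasts. Cdkn1a (chromosome 17, 29,090,976 to 29,100,727, plus strand) encodes p21, the inhibitor of cyclin-dependent kinases through which p53 halts the cycle. Under LXA4 it had 27.6, 39.1 and 50.6 CPM as lowest, median and highest in diabetic mice and 2.55, 6.67 and 8.19 CPM in nondiabetic mice, a 6.19-fold difference (log2 2.63, interval 2.13 to 3.13, adjusted p = 4.25e-09 in edgeR). In the benzo-LXA4 contrast Cdkn1a had 29.2, 36.5 and 46.9 CPM in diabetic and 3.48, 5.12 and 9.49 CPM in nondiabetic mice, a 6.53-fold difference (log2 2.71, interval 2.21 to 3.21, adjusted p = 2.08e-09). The groups did not overlap in either contrast. Over all 3 treatments the 18 diabetic libraries lay between 25.4 and 50.6 CPM and the 18 nondiabetic ones between 2.55 and 9.49 CPM. Those ranges include the vehicle libraries that brought up the list, so they are a description.

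Psrc1 (chromosome 3, 108,383,839 to 108,388,231) encodes a microtubule-associated protein of the mitotic spindle and was the least abundant member. It stood at 1.12, 1.69 and 2.60 CPM in diabetic and 0.0456, 0.168 and 0.360 CPM in nondiabetic mice under LXA4 (log2 3.25, adjusted p = 8.53e-09 in edgeR). Under benzo-LXA4 it stood at 1.38, 1.89 and 2.21 CPM in diabetic and 0.0407, 0.138 and 0.191 CPM in nondiabetic mice (log2 3.68, adjusted p = 1.22e-09 in edgeR). The groups were again fully apart, but the nondiabetic values rest on few reads: 32 counts over the 6 nondiabetic LXA4 libraries and 22 over the 6 nondiabetic benzo-LXA4 libraries, against 230 and 305 in the diabetic ones.

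**Figure D2:**
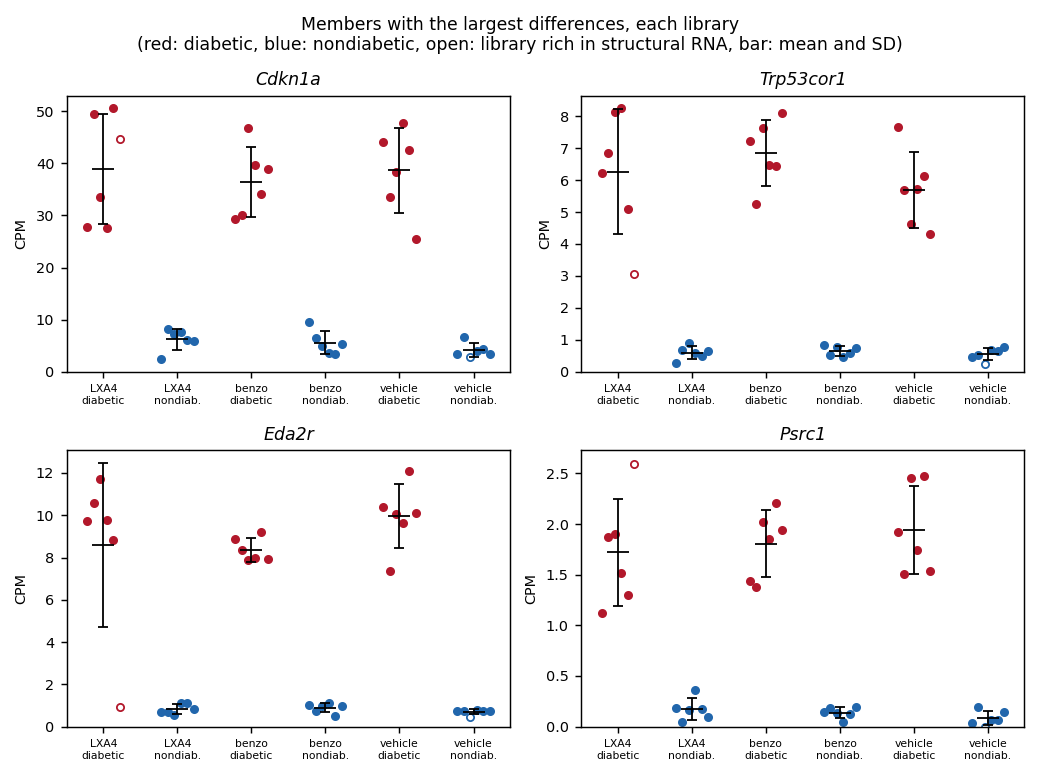
CPM in each library of the 4 members with the largest differences, with diabetic libraries in red and nondiabetic ones in blue under LXA4, benzo-LXA4 (benzo) and vehicle; open circles are the 2 libraries rich in structural RNA, and bars are the group mean and SD (n = 6). The colours do not overlap in Cdkn1a, Trp53cor1 and Psrc1, and in Eda2r only diabetic LXA4 replicate 6, at 0.945 CPM, falls within the nondiabetic range.

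Ccng1 (chromosome 11, 40,748,552 to 40,755,311) encodes cyclin G1, an atypical cyclin that recruits a phosphatase to Mdm2. Its values were 160, 228 and 406 CPM in diabetic and 113, 130 and 170 CPM in nondiabetic mice under LXA4 (log2 0.88, adjusted p = 6.64e-05 in edgeR), where 5 of 6 diabetic libraries exceeded every nondiabetic one. Under benzo-LXA4 they were 205, 227 and 251 CPM in diabetic and 108, 122 and 152 CPM in nondiabetic mice with no overlap (log2 0.84, adjusted p = 3.35e-04). Without the 2 libraries rich in structural RNA the LXA4 difference was 0.68.

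Plk2 (chromosome 13, 110,395,046 to 110,400,844), a polo-like kinase of the S phase checkpoint, had 12.6, 16.4 and 21.3 CPM in diabetic and 6.23, 7.42 and 12.02 CPM in nondiabetic mice under LXA4 with no overlap (log2 1.02, adjusted p = 2.89e-06 in edgeR). Under benzo-LXA4 it had 10.3, 13.7 and 14.4 CPM in diabetic and 7.13, 8.87 and 11.3 CPM in nondiabetic mice, with 1 diabetic library inside the nondiabetic range (log2 0.50, adjusted p = 0.0216). This second call was lost without diabetic benzo-LXA4 replicate 5 or nondiabetic benzo-LXA4 replicate 4 or 6, with adjusted p-values up to 0.0648 in edgeR. Btg2, an antiproliferative protein that promotes mRNA deadenylation, rose under LXA4 (21.2 ± 4.37 CPM in diabetic and 12.9 ± 1.21 CPM in nondiabetic mice, SD, n = 6 each, adjusted p = 4.31e-04 in edgeR) and had 17.1 ± 1.08 and 13.7 ± 2.61 CPM under benzo-LXA4 (adjusted p = 0.195). Plk3 and Tob1, a kinase of the same family as Plk2 and a protein of the same family as Btg2, passed in neither, with log2 differences of 0.86 and 0.14 under LXA4 and 0.48 and −0.04 under benzo-LXA4. Plk3 passed under LXA4 without diabetic LXA4 replicate 3 (adjusted p = 0.0447 in edgeR).

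The 2 long noncoding RNAs of the list both rose in both contrasts. Trp53cor1 (lincRNA-p21, chromosome 17, 29,057,430 to 29,079,179, minus strand) is transcribed away from Cdkn1a on the opposite strand and has been described in the mouse as a repressor in the p53 response. Under LXA4 it had 3.07, 6.53 and 8.24 CPM in diabetic and 0.276, 0.628 and 0.898 CPM in nondiabetic mice, a 10.7-fold difference (log2 3.42, adjusted p = 2.00e-12 in edgeR). In the benzo-LXA4 contrast it had 5.24, 6.84 and 8.09 CPM in diabetic and 0.447, 0.656 and 0.830 CPM in nondiabetic mice, a 10.4-fold difference (log2 3.38, adjusted p = 2.71e-12 in edgeR). The groups did not overlap in either contrast. As a description that includes the vehicle libraries, the highest nondiabetic library of the whole series was at 0.898 CPM. GENCODE M21 places exons of other genes on the opposite strand of both Trp53cor1 and Cdkn1a. No strand setting of the counting is given in the sources used here, so reads of overlapping genes could be mixed. Pvt1, a noncoding RNA encoded beside Myc, was at 118 ± 15.3 CPM in diabetic and 80.5 ± 10.6 CPM in nondiabetic mice under LXA4 (log2 0.56, adjusted p = 3.82e-04 in edgeR) and at 120 ± 10.1 and 87.3 ± 6.28 CPM under benzo-LXA4 (log2 0.46, adjusted p = 0.00948).

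Among the 11 members that act in apoptosis or p53-dependent death, 6 rose and 2 fell under LXA4, and 4 rose under benzo-LXA4. Eda2r (chromosome X, 97,333,840 to 97,377,216) encodes a receptor of the TNF receptor family that binds ectodysplasin A2. It had 0.945, 9.75 and 11.7 CPM in diabetic and 0.531, 0.778 and 1.11 CPM in nondiabetic mice under LXA4 (log2 3.42, adjusted p = 2.97e-11 in edgeR). With benzo-LXA4, Eda2r had 7.87, 8.16 and 9.22 CPM in diabetic and 0.496, 0.989 and 1.10 CPM in nondiabetic mice (log2 3.22, adjusted p = 9.78e-11 in edgeR). Only diabetic LXA4 replicate 6, with 4 counts, overlapped the nondiabetic range, and without the libraries rich in structural RNA the LXA4 difference was 3.59.

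Tnfrsf10b (chromosome 14, 69,767,472 to 69,784,411), the mouse receptor for the death ligand TRAIL, had 3.31, 4.80 and 5.66 CPM in diabetic and 1.96, 2.74 and 3.48 CPM in nondiabetic mice under LXA4 (log2 0.86, adjusted p = 2.03e-04 in edgeR). Under benzo-LXA4 it had 4.66, 5.17 and 6.00 CPM in diabetic and 1.97, 2.58 and 4.15 CPM in nondiabetic mice (log2 0.93, adjusted p = 2.25e-04 in edgeR). The groups were apart under benzo-LXA4, and under LXA4 5 of 6 diabetic libraries lay above all nondiabetic ones.

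Aen (chromosome 7, 78,895,854 to 78,911,209), a nuclease that enhances apoptosis, had 21.8, 26.7 and 39.2 CPM in diabetic and 12.9, 13.7 and 17.6 CPM in nondiabetic mice under LXA4 (log2 0.93, adjusted p = 5.61e-06 in edgeR). Aen had 20.8, 24.1 and 27.3 CPM in diabetic and 12.1, 14.2 and 18.6 CPM in nondiabetic mice under benzo-LXA4 (log2 0.72, adjusted p = 4.37e-04 in edgeR). All diabetic libraries exceeded all nondiabetic ones in both. Trp53inp1, a stress protein that assists p53 and autophagy, was at 79.9 ± 16.3 CPM in diabetic and 52.4 ± 6.44 CPM in nondiabetic mice under LXA4 (log2 0.62, adjusted p = 7.24e-04 in edgeR) and at 85.8 ± 6.54 and 48.0 ± 4.83 CPM under benzo-LXA4 (log2 0.84, adjusted p = 5.84e-05).

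**Figure D3:**
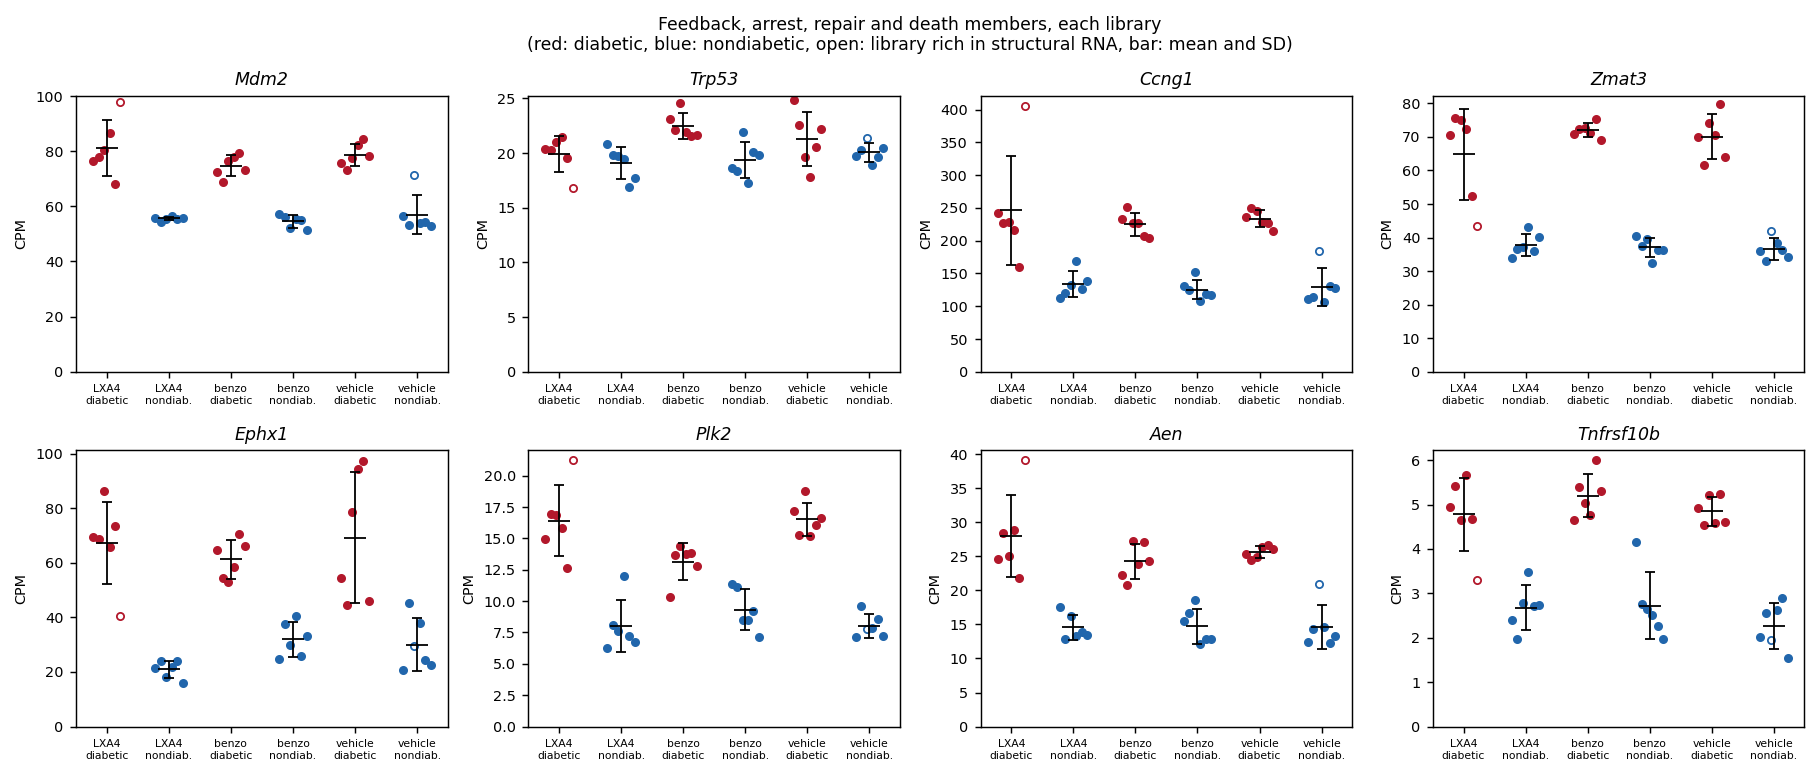
CPM in each library of Mdm2, Trp53, Ccng1, Zmat3, Ephx1, Plk2, Aen and Tnfrsf10b, with diabetic libraries in red and nondiabetic ones in blue under LXA4, benzo-LXA4 (benzo) and vehicle; open circles are the 2 libraries rich in structural RNA, and bars are the group mean and SD (n = 6). All axes start at 0. In Trp53 the red and blue libraries overlap in all 3 treatments, and in the other genes all or all but 1 of the red libraries of each treatment lie above the blue ones.

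Phlda3 is a pleckstrin-homology protein that competes with Akt for membrane lipids, and Bbc3 is the BH3-only protein Puma. The size of their LXA4 differences depended on diabetic LXA4 replicate 6. Their LXA4 calls held when any single library of that contrast was left out. Phlda3 was at 6.47, 9.30 and 51.9 CPM in diabetic and 1.41, 2.01 and 2.79 CPM in nondiabetic mice under LXA4 (log2 2.84, adjusted p = 7.31e-05 in edgeR). The 51.9 CPM belong to diabetic LXA4 replicate 6, and without the libraries rich in structural RNA the log2 difference was 2.10, with the groups still apart. Under benzo-LXA4 it was at 7.39, 8.33 and 9.15 CPM in diabetic and 1.72, 2.42 and 11.9 CPM in nondiabetic mice, a difference of 1.12 that did not pass (adjusted p = 0.154 in edgeR). The 11.9 CPM belong to nondiabetic benzo-LXA4 replicate 1, the library with 338 CPM of adipose markers, and without it the difference was 1.92 (adjusted p = 0.00344 in edgeR). It also passed without the libraries rich in structural RNA, neither of which is in this contrast, at a difference of 1.11 (adjusted p = 0.0172 in edgeR). The part of the adipose content in this value was not tested.

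Bbc3 rose under LXA4 (log2 1.22, adjusted p = 0.0045 in edgeR), with 13.9 CPM in diabetic LXA4 replicate 6 and at most 3.41 CPM in the other diabetic LXA4 libraries. Without the libraries rich in structural RNA its difference was 0.65 under LXA4 (adjusted p = 0.0051) and 0.94 under benzo-LXA4 (adjusted p = 5.98e-04 in edgeR), where it was 0.95 and missed the threshold with all libraries (adjusted p = 0.0662). The diabetic and nondiabetic libraries did not overlap in either contrast.

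Perp, a tetraspan membrane protein of desmosomes, and Ei24, a protein of the endoplasmic reticulum that takes part in autophagy, fell under LXA4. Perp was at 27.5 ± 2.35 CPM in diabetic and 36.7 ± 2.74 CPM in nondiabetic mice and fell by 0.41 on the log2 scale (adjusted p = 0.00114 in edgeR), with no overlap. Ei24 was at 58.9 ± 14.7 CPM in diabetic and 74.5 ± 5.04 CPM in nondiabetic mice and fell by 0.33 (adjusted p = 0.0256 in edgeR), which was lost without nondiabetic LXA4 replicate 3 (adjusted p = 0.0510). Under benzo-LXA4 their differences were −0.14 and −0.04. Bax, the pore-forming protein of mitochondrial apoptosis, Pmaip1, the BH3-only protein Noxa, and the death receptor gene Fas passed in neither contrast, with log2 differences of 0.30, 0.12 and 0.28 under LXA4 and 0.08, 0.25 and 0.28 under benzo-LXA4. Fas passed under LXA4 without the libraries rich in structural RNA (log2 0.38, adjusted p = 0.0132 in edgeR).

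**Figure D4:**
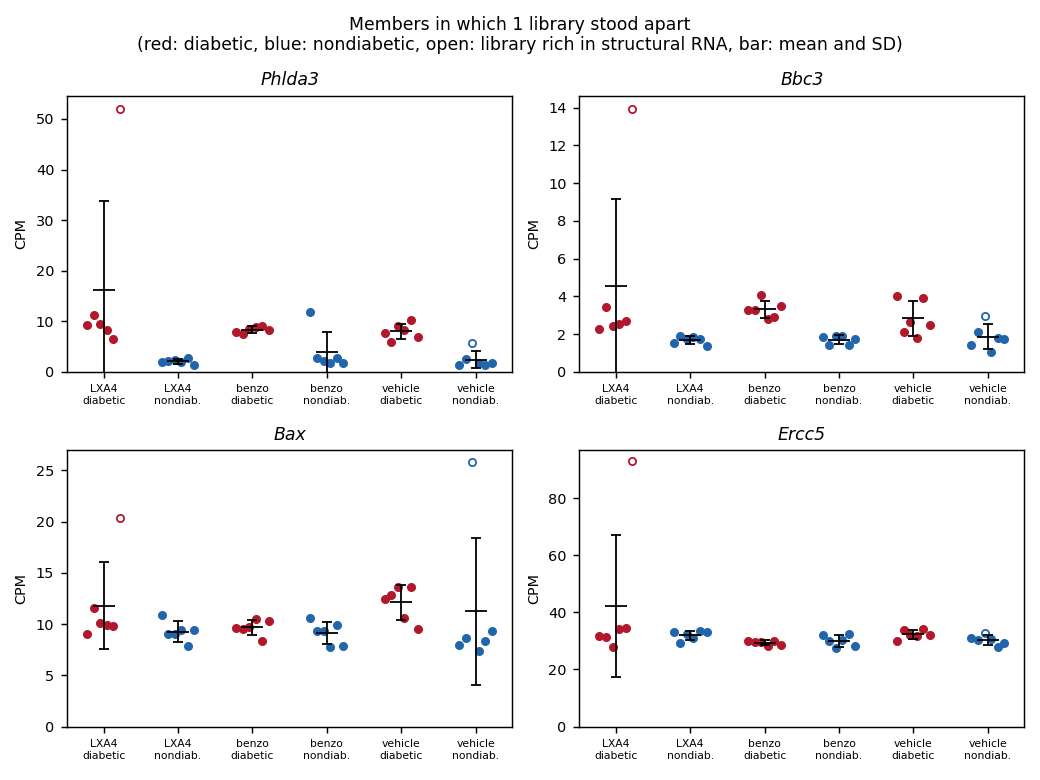
CPM in each library of Phlda3, Bbc3, Bax and Ercc5, with diabetic libraries in red and nondiabetic ones in blue under LXA4, benzo-LXA4 (benzo) and vehicle; open circles are the 2 libraries rich in structural RNA, and bars are the group mean and SD (n = 6, drawn down to 0 at most). Diabetic LXA4 replicate 6 reaches 51.9 CPM in Phlda3, 13.9 in Bbc3, 20.3 in Bax and 93.0 in Ercc5, and nondiabetic vehicle replicate 3 reaches 25.9 CPM in Bax.

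Of the 5 redox and metabolism members, Ephx1 rose in both contrasts. Ephx1 (chromosome 1, 180,976,210 to 181,020,904) encodes microsomal epoxide hydrolase, which opens reactive epoxides. It had 40.4, 69.1 and 86.1 CPM in diabetic and 15.8, 21.7 and 24.04 CPM in nondiabetic mice under LXA4, a 3.24-fold difference (log2 1.70, adjusted p = 4.80e-07 in edgeR). Under benzo-LXA4 it had 52.98, 61.6 and 70.7 CPM in diabetic and 24.7, 31.5 and 40.5 CPM in nondiabetic mice, a 1.92-fold difference (log2 0.94, adjusted p = 0.00374 in edgeR). The groups were apart in both. Dcxr, a reductase of dicarbonyls and xylulose, was at 53.2 ± 7.64 CPM in diabetic and 71.8 ± 5.46 CPM in nondiabetic mice under LXA4 and fell by 0.44 (adjusted p = 0.0240 in edgeR), a call lost without diabetic LXA4 replicate 5 (adjusted p = 0.0642). Its difference under benzo-LXA4 was −0.07. The sestrins Sesn1 and Sesn2, which limit oxidants and mTORC1 signalling, and Fdxr, the mitochondrial ferredoxin reductase, passed in neither, with log2 differences between 0.09 and 0.25 under LXA4 and between 0.04 and 0.08 under benzo-LXA4. Sesn1 passed under LXA4 without the libraries rich in structural RNA (log2 0.29, adjusted p = 0.0308 in edgeR).

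Zmat3 (chromosome 3, 32,334,792 to 32,366,014), a zinc-finger protein that binds RNA and regulates splicing, had 43.4, 71.5 and 75.6 CPM in diabetic and 34.02, 36.9 and 43.2 CPM in nondiabetic mice under LXA4 (log2 0.78, adjusted p = 8.81e-07 in edgeR). Under benzo-LXA4 it had 69.2, 71.8 and 75.5 CPM in diabetic and 32.3, 36.8 and 40.4 CPM in nondiabetic mice (log2 0.96, adjusted p = 1.85e-08 in edgeR). Its groups did not overlap in either. Rps27l, a ribosomal protein paralog, passed in neither (log2 −0.30 and 0.11), with 4.49 CPM in diabetic LXA4 replicate 6 against 41.4 to 56.6 CPM in the other libraries of its group.

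Of the 5 members of DNA repair and nucleotide supply, only Ddb2, a subunit of the complex that recognises ultraviolet damage, rose under LXA4, and 0 rose under benzo-LXA4. Ddb2 was at 13.5 ± 4.35 CPM in diabetic and 8.50 ± 1.49 CPM in nondiabetic mice under LXA4 (log2 0.63, adjusted p = 0.00366 in edgeR) and at 11.8 ± 1.53 and 9.54 ± 0.878 CPM under benzo-LXA4 (log2 0.31, adjusted p = 0.290). Its exons overlap those of Acp2 on the other strand. Xpc, the damage sensor of nucleotide excision repair, Ercc5, its endonuclease, Polk, a translesion polymerase, and Rrm2b, a ribonucleotide reductase subunit, did not pass, with log2 differences from −0.07 to 0.36 under LXA4 and from −0.22 to 0.19 under benzo-LXA4. Polk passed in both without the libraries rich in structural RNA, with differences of 0.28 (adjusted p = 6.05e-04) and 0.18 (adjusted p = 0.0301 in edgeR). The 0.36 was that of Ercc5, for which diabetic LXA4 replicate 6 had 93.0 CPM and the other 5 libraries at most 34.7 CPM. Without the libraries rich in structural RNA its difference was −0.00177, and it passed without diabetic LXA4 replicate 2 or 3, at an adjusted p of 0.0362 at the lowest.

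A complete separation of 6 diabetic from 6 nondiabetic libraries, with every diabetic one higher, held for 12 members under LXA4 and 14 under benzo-LXA4, where 4.87% and 3.19% of all genes showed it. The reverse separation held for 2 members, Perp and Dcxr, under LXA4 and for 0 under benzo-LXA4, against 7.18% and 2.63% of all genes. In the vehicle libraries, again as a description, 13 members were separated as higher and 0 as lower (1.72% and 0.852% of all genes). Over all 36 libraries and 3 treatments, 4 members kept every diabetic library above every nondiabetic one: Cdkn1a, Trp53cor1, Psrc1 and Zmat3, where 0.153% of all genes (24) did. Without the 2 libraries rich in structural RNA, Eda2r, Mdm2, Trp53inp1, Tnfrsf10b and Aen joined them, which made 9, against 0.286% of all genes (45). Both counts include the vehicle libraries that brought up the list, so they are a description. Zmat3 lay between 43.4 and 79.9 CPM in diabetic and between 32.3 and 43.2 CPM in nondiabetic mice, and Eda2r, without that pair, between 7.38 and 12.1 CPM in diabetic and between 0.496 and 1.11 CPM in nondiabetic mice.

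The members differed widely in level. Per kilobase of exon (GENCODE M21), the highest in diabetic vehicle mice were Rps27l at 68.9 ± 4.22, Ccng1 at 66.5 ± 3.70 and Dcxr at 54.3 ± 10.9 CPM per kb (SD, n = 6). The same 3 led in nondiabetic vehicle mice, where Ccng1 stood at 36.9 ± 8.19 CPM per kb. That mean and SD include nondiabetic vehicle replicate 3, rich in structural RNA. It had 185 CPM of Ccng1, against 107 to 131 CPM in the rest of its group. Psrc1 was lowest in both states, with 0.576 ± 0.129 in diabetic and 0.0247 ± 0.0213 CPM per kb in nondiabetic mice. In diabetic vehicle mice Tnfrsf10b (0.890 ± 0.0601 CPM per kb) and Bbc3 (1.33 ± 0.432) came next. Eda2r, with 1.69 ± 0.257 in diabetic and 0.118 ± 0.0204 CPM per kb in nondiabetic mice, and Trp53cor1, with 1.52 ± 0.319 and 0.149 ± 0.0528 CPM per kb, came next above Psrc1 in nondiabetic mice. Cdkn1a, at 10.9 ± 2.28 CPM per kb in diabetic mice and 1.15 ± 0.379 in nondiabetic mice, stood below Mdm2 in both states (15.5 ± 0.817 and 11.2 ± 1.40 CPM per kb).

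The next question was whether LXA4 or benzo-LXA4 changed these genes relative to vehicle. In diabetic mice, 0 of the 35 members passed under LXA4 and 0 under benzo-LXA4 in edgeR, where 0.356% (0.312% higher and 0.0445% lower) and 0% of all genes passed, and DESeq2 called 0 members in both as well. At an unadjusted p under 0.05 there were 6 members under LXA4 and 1 under benzo-LXA4, among 2468 and 891 of all genes. Without diabetic LXA4 replicate 6 there were 0 and 2 members. Without both libraries rich in structural RNA there were 4 and 5. All comparisons with vehicle, in nondiabetic mice and in the interaction below as well, use vehicle libraries of the contrast that brought up the list, so the members' values in them are not independent of that choice. The doses differ, so the compounds are set side by side and not compared.

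Cdkn1a differed from vehicle in diabetic mice by 0.01 on the log2 scale under LXA4 (95% interval −0.45 to 0.47) and by −0.09 under benzo-LXA4 (−0.54 to 0.37). For Trp53cor1 the values were 0.17 (−0.22 to 0.56) under LXA4 and 0.27 (−0.12 to 0.65) under benzo-LXA4, and for Eda2r −0.16 (−0.61 to 0.29) and −0.25 (−0.70 to 0.20). The LXA4 value of Eda2r changed sign without the libraries rich in structural RNA, to 0.02 (−0.25 to 0.28), and so did those of Cdkn1a, to −0.04, and Mdm2, to −0.02. Mdm2 had the narrower intervals of −0.10 to 0.18 and −0.21 to 0.06. All 35 intervals lay within 1 log2 unit of 0 under benzo-LXA4 and 33 of 35 did under LXA4, with Phlda3 (0.90, interval 0.03 to 1.77) and Bbc3 (0.47, −0.15 to 1.09) outside. Without the libraries rich in structural RNA, Phlda3 differed by 0.15 (−0.48 to 0.78) and Bbc3 by −0.10 (−0.45 to 0.26) under LXA4, and all 35 intervals lay within 1 log2 unit for both compounds. A missing call does not show that a gene was level.

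Under LXA4, 0 members had diabetic libraries wholly above or below those of diabetic vehicle mice, where 0.458% and 0.362% of all genes did. Under benzo-LXA4, 0 were wholly above (0.68% of all genes), and 2 members had all 6 diabetic libraries below all 6 of diabetic vehicle mice, Plk2 and Ercc5, where 0.553% of all genes did. Plk2 had 10.3, 13.7 and 14.4 CPM under benzo-LXA4 and 15.2, 16.3 and 18.8 CPM under vehicle, a log2 difference of −0.33 (interval −0.59 to −0.07, adjusted p = 0.698 in edgeR). Trp53inp1 under LXA4 had the lowest unadjusted p of the members in that contrast, with a difference of −0.30 (−0.56 to −0.05, adjusted p = 0.243 in edgeR), and its groups overlapped. It had 49.6 CPM in diabetic LXA4 replicate 6, against 76.4 to 95.8 CPM in the rest of that group. Without that library its unadjusted p was not under 0.05. Neither Plk2 nor Trp53inp1 passed after adjustment.

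In nondiabetic mice 0 members passed under LXA4 or benzo-LXA4 (0% of all genes in each), also with DESeq2. Nor were any members wholly above or below vehicle: 0 under LXA4 (0.191% and 0.254% of all genes) and 0 under benzo-LXA4 (0.0382% and 0.0699%). At an unadjusted p under 0.05 stood 3 members under LXA4 and 1 under benzo-LXA4, among 967 and 452 of all genes. Those under LXA4 were Cdkn1a (log2 0.60, interval 0.09 to 1.10), Psrc1 and Ephx1 (−0.52, interval −0.92 to −0.12), with adjusted p-values of 0.807 to 0.812 in edgeR. Without the libraries rich in structural RNA, 8 members under LXA4 and 1 under benzo-LXA4 stood at an unadjusted p under 0.05.

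The interaction sets the diabetic minus nondiabetic difference under a compound against that under vehicle, the value from which the list was drawn, and such a choice can by itself push these differences of differences below 0. It called 0 members for LXA4 and 0 for benzo-LXA4, against 0.248% (0.21% higher and 0.0382% lower) and 0% of all genes, and DESeq2 called 0. Unadjusted p-values under 0.05 numbered 4 and 1 among the members and 2592 and 673 among all genes. Without diabetic LXA4 replicate 6 they numbered 5 and 3 among the members, and without both libraries rich in structural RNA 9 and 6. The lowest adjusted p-values were 0.204, for Trp53inp1 under LXA4 (difference of differences −0.46, interval −0.82 to −0.10), and 0.899, for Plk2 under benzo-LXA4 (−0.54, interval −0.92 to −0.16), both in edgeR. The Trp53inp1 value includes diabetic LXA4 replicate 6, the lowest of its group at 49.6 CPM.

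**Figure D5:**
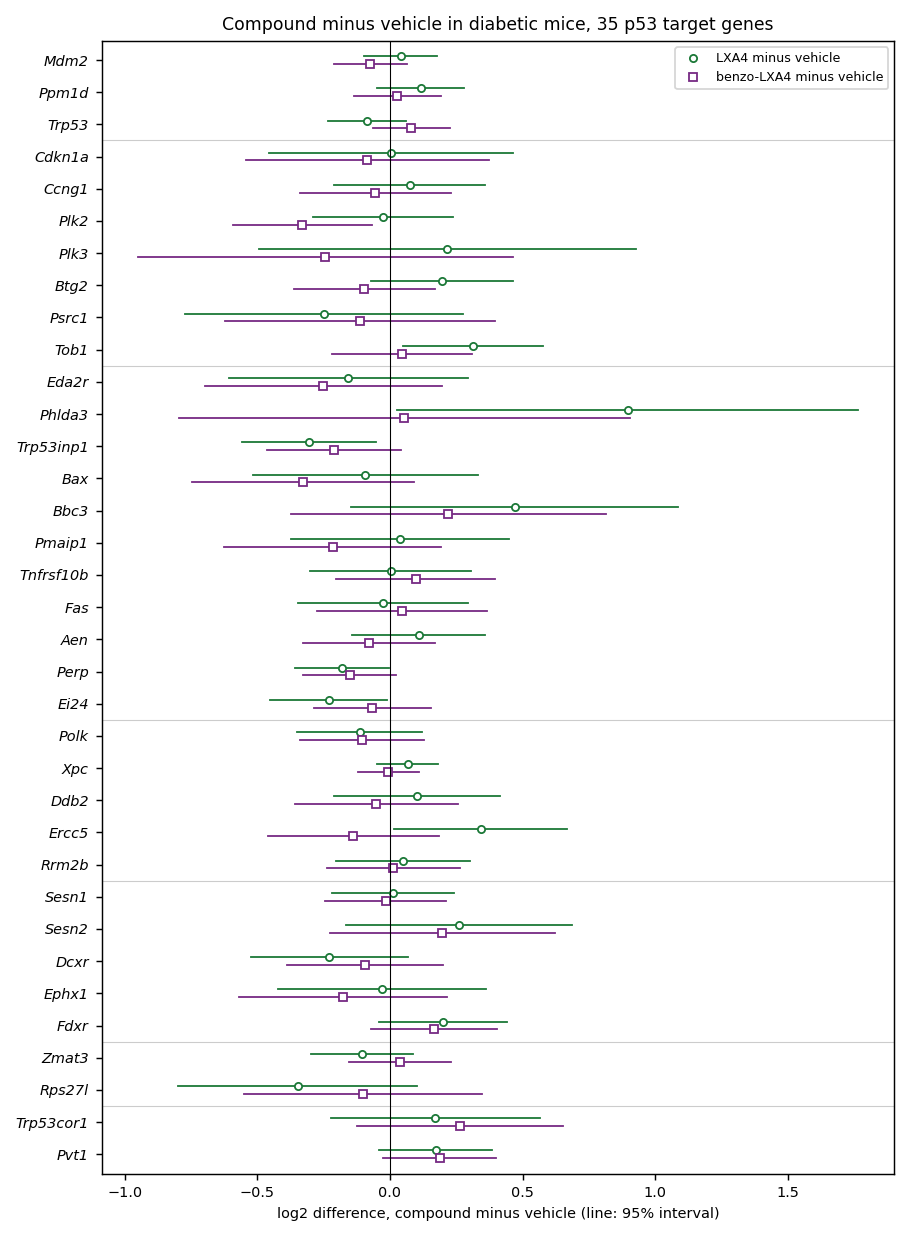
Log2 difference of compound minus vehicle in diabetic mice for the 35 members, LXA4 as circles and benzo-LXA4 as squares, grouped by role as in the plot of diabetic minus nondiabetic mice. Lines are 95% intervals of the fitted difference, and all symbols are open because none passed the test. All points lie between −0.35 and 0.90, and the widest intervals are those of Phlda3 and Plk3.

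Within groups, Cdkn1a did not vary detectably with 5 other members. The deviations of log2 CPM from the group mean were correlated with those of Eda2r, Trp53cor1, Phlda3, Mdm2 and Ccng1 over the 18 diabetic and, apart from them, the 18 nondiabetic libraries, which gave 10 relations tested by permutation within groups. The largest was Cdkn1a with Trp53cor1 in nondiabetic mice, with Pearson r 0.65 (permutation p = 0.0070, adjusted 0.0702) and Spearman rho 0.50 (p = 0.0423, adjusted 0.423). Without the 2 libraries farthest from the median of Cdkn1a that r was 0.41. In diabetic mice r ran from −0.21, with Eda2r, to 0.28, with Phlda3, and none of the 10 passed.

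The rest of the pathway was taken from lists that, like the members, were chosen with earlier results of these data known, and members were left out of them. Their counts stand beside 15.4% of all genes higher and 12.3% lower under LXA4 and 2.81% higher and 1.25% lower under benzo-LXA4, and without the libraries rich in structural RNA beside 17.5% and 19.3%, and 6.12% and 6.00%. Of 24 measured genes upstream of p53, such as the kinases Atm and Chek2 and the inhibitor Mdm4, 0 passed under LXA4 or benzo-LXA4. Without the libraries rich in structural RNA, 2 were higher and 2 lower under LXA4 and 2 lower under benzo-LXA4. Of 51 further reported p53 targets, 23 rose and 3 fell under LXA4, and 9 rose and 2 fell under benzo-LXA4, with median log2 differences of 0.36 and 0.13. With the same libraries left out, 22 were higher and 4 lower under LXA4 and 12 higher and 2 lower under benzo-LXA4. Fam212b rose by 2.88 under LXA4 and 2.21 under benzo-LXA4, with adjusted p-values of 5.50e-09 and 1.18e-06 in edgeR. Mgmt, which removes alkyl groups from guanine in DNA, rose by 1.34 and 1.39 (adjusted p = 2.28e-08 and 1.09e-08 in edgeR). D630023F18Rik, of which no role is given here, fell by 2.48 and 1.28 on the log2 scale.

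Of 28 genes that are known to be repressed through p21 in cultured cells, 8 rose and 0 fell under LXA4 and 17 rose and 0 fell under benzo-LXA4, with median log2 differences of 0.48 and 0.88. They included Mki67, a marker of cycling cells (0.90 and 1.76), Cdk1, the mitotic kinase (0.88 and 1.52), and Rrm2, a ribonucleotide reductase subunit of S phase (0.73 and 1.28). The counts without the libraries rich in structural RNA were 10 and 20. Among 27 repair genes outside the members, 6 rose and 2 fell under LXA4 and 5 rose and 0 fell under benzo-LXA4, including Fancd2 of crosslink repair (1.36 and 0.82) and the ligase gene Lig1 (0.65 and 0.62). With those libraries left out, 7 repair genes were higher and 4 lower under LXA4, and 6 higher and 0 lower under benzo-LXA4. Of 6 cyclin D genes and partners, 2 rose under LXA4 and 1 under benzo-LXA4, and Ccnd1, cyclin D1, rose in both (0.90 and 0.57). Without those libraries, 2 rose under each. The 5 CDK inhibitors other than p21 gave 2 rises under LXA4, 0 without the libraries rich in structural RNA, and 0 under benzo-LXA4, and 10 other BCL2 family genes gave 3 rises and 2 falls under LXA4 and 0 of either under benzo-LXA4 (4 and 2, and 1 and 0, without those libraries).

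Marker lists of cell types stand beside the same shares of all genes. Of 14 proximal tubule markers 7 fell under LXA4 and 1, Miox, the renal inositol oxygenase, under benzo-LXA4, and 0 rose, and without the libraries rich in structural RNA 9 and 3 were lower. Of 9 injured tubule markers 3 rose under LXA4, or 5 without those libraries, and 1 under benzo-LXA4 either way. Of the 5 measured markers of T, NK and B cells, Cd247 of the T cell receptor complex rose in both (0.78 and 0.93), and without those libraries 2 were higher under LXA4. Markers of loop of Henle and distal convoluted tubule, of collecting duct, and of macrophages and monocytes gave 0 calls in both, podocyte markers 1 rise under LXA4, and endothelial markers 1 rise under benzo-LXA4. Without those libraries, collecting duct gave 1 rise in each contrast, loop of Henle and distal convoluted tubule 1 fall under benzo-LXA4, macrophages and monocytes 1 fall under LXA4, podocytes 2 rises under LXA4 and 1 under benzo-LXA4, and endothelium 1 rise and 1 fall under LXA4. Smooth muscle and fibroblast markers gave 3 rises and urothelial markers 3 rises under LXA4 (2 and 5 without those libraries), and 0 under benzo-LXA4, while all 5 adipose markers were lower in diabetic mice under benzo-LXA4, of which 0 passed without nondiabetic benzo-LXA4 replicate 1.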

How the data were processed

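Kidney cortex RNA (200 ng a sample) went through ribosomal RNA depletion and a directional library kit, per the labels' protocols. The authors deposited raw counts per gene in 1 table. Per the submitters' processing notes, bcl2fastq 2.17.1.14, STAR and featureCounts were used with build GRCm38. No strand or multimapping setting is given in the sources used here. The lowest gene total in the table was 370, so rarer genes are not analysed here. All columns matched a labelled sample.

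Counts of all 36 libraries were fitted with edgeR 4.0.16 in R 4.3.3 (TMM scaling, edgeR's low-count filter, 1 term per group) and tested with the quasi-likelihood F test, 2-sided, with Benjamini-Hochberg adjustment over all genes and a threshold of 0.05. The fit was tested on simulated data. CPM use TMM-scaled totals. No libraries were identical. Same-numbered replicates did not deviate together on average (mean r 0.00237 over 90 pairs, from −0.417 to 0.465, of which 29 exceeded 0.1). A mean cannot show whether numbers pair the samples of some groups, and samples were treated as unpaired. Alternatives were DESeq2 1.42.0, its size factors in edgeR, no filter, only the groups compared, a replicate block, and leaving out each library or the 2 rich in structural RNA. Correlations used 100000 permutations within groups.

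The members and all gene lists were chosen with earlier results of these data known. Values per library are given for the 10 members with the largest mean difference among those that passed in both treated contrasts, and for Trp53 and Mdm2. From the lists, at most 3 genes were named, those with the lowest p under LXA4 among genes that passed in both. Phlda3, Bbc3 and the other members named with single libraries were chosen after their values were seen.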

Additional observations from a re-analysis of the deposited data

Results flagged for a closer look

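In 210 sets of 6 libraries (35 members in 6 groups), 22 held a library far from the others by Dixon's criterion; chance alone gives about 1 in 20. Of these, 12 concerned diabetic LXA4 replicate 6 and 6 nondiabetic vehicle replicate 3, the libraries rich in structural RNA.

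Diabetic LXA4 replicate 6 stood above the rest of its group in Phlda3 (51.9 CPM, next library 11.3), Bbc3 (13.9, next 3.41), Ccng1 (406, next 242), Bax (20.3, next 11.6), Ercc5 (93.0, next 34.7) and Tob1 (132, next 73.7). It stood below the rest in Eda2r (0.945 CPM, next 8.85), Rps27l (4.49, next 41.4), Fas (8.26, next 17.9), Polk (15.6, next 35.9), Ei24 (30.5, next 58.2) and Rrm2b (17.0, next 32.5).

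Nondiabetic vehicle replicate 3 stood above its group in Bax (25.9 CPM, next 9.31), Phlda3 (5.61, next 2.52), Mdm2 (71.3, next 56.3), Ccng1 (185, next 131) and Aen (20.9, next 14.6), and below it in Eda2r (0.458, next 0.716).

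Nondiabetic benzo-LXA4 replicate 1, the library with adipose markers, was far above its group in Phlda3 (11.9 CPM, next 2.72) and above it in Tnfrsf10b (4.15, next 2.76). The last pair were Perp in nondiabetic LXA4 replicate 3 (42.0 CPM, next 36.8) and Plk2 in nondiabetic LXA4 replicate 4 (12.02, next 8.08).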

How the results depend on the processing

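Counts of members called stayed within 1.5 times under every alternative: 17 to 20 higher and 2 or 3 lower under LXA4, 13 to 18 higher and 0 lower under benzo-LXA4, and 0 in every compound contrast and interaction; leaving out single libraries gave 17 to 20 and 12 to 14 higher. With the replicate block, which shares only a number between samples, 18 and 13 were higher and 4100 and 542 of all genes were called under LXA4 and benzo-LXA4. The counts over all genes moved more. Under LXA4, 4353 were called, 2338 with only the groups compared. Under benzo-LXA4, 638 were called, 1906 without the libraries rich in structural RNA, 1875 with only the groups compared and 1066 with DESeq2. Under vehicle, 881 were called, 1399, 342 and 1329 in the same order. For LXA4 against vehicle in diabetic mice 56 were called, 93, 1 and 231 in that order and 28 with the block; for benzo-LXA4 0 were called, 48, 3 and 52. The LXA4 interaction called 39, 129, 0 and 266, and 9 with the block.

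Without the libraries rich in structural RNA, log2 differences under LXA4 changed sign in Ercc5 (−0.00177), Rrm2b (0.0390) and Tob1 (−0.0854), as did r of Cdkn1a with Trp53cor1 (0.164) and Mdm2 (−0.109) in diabetic and with Mdm2 (0.0487) in nondiabetic mice. Without the 2 libraries farthest from the median, r changed sign for Phlda3 (−0.129) and Ccng1 (−0.219) in nondiabetic mice. Leaving out single libraries gave ranges across 0 under LXA4 for Pmaip1 (−0.0639 to 0.20), Rrm2b (−0.14 to 0.0524) and Tob1 (−0.0723 to 0.21), and under benzo-LXA4 for Sesn2 (−0.0597 to 0.10) and Dcxr (−0.12 to 0.00899). None of these passed with all libraries. Against vehicle, members passed in none of the compound contrasts without these libraries either, an alternative on single members chosen after seeing the data; the signs of 11 of 35 turned for LXA4 and 0 for benzo-LXA4 in diabetic mice. The cause was not tested.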
